A study of Capra hircus with 10 samples.

Results

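The 8 genes described here, DCN, LUM, OGN, BGN, PDGFRA, THY1, NR2F2 and TCF21, are widely used to recognise the fibroblast-like stroma of the ovary. They were taken by symbol from the protein-coding transcripts of goat ovary, and 8 of 8 symbols were present among the 20587 gene symbols of the table, with 18 of its 43766 protein-coding transcripts. FPKM (mapped fragments scaled to transcript length and to all mapped fragments) of the transcripts of a symbol were added to give 1 level per gene and ovary.

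Whole ovaries of Anhui white goats, obtained from a slaughterhouse, were sequenced as 1 strand-specific library per ovary after removal of ribosomal RNA. The libraries make 2 groups, 5 ovaries labelled follicular phase and 5 labelled luteal phase, the parts of the estrous cycle before ovulation and after it, when the corpus luteum is present. Any treatment, the age of the goats and the day of the cycle are not given in the sources used here, and nothing states whether the 10 ovaries came from 10 animals, so p-values measure the spread between these ovaries. The summed FPKM was 492324 to 540124 per follicular phase ovary and 452508 to 503276 per luteal phase ovary. FPKM carry no read counts, so the depth behind each value is unknown.

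The ovarian stroma is the connective tissue in which follicles and corpora lutea lie. Its cells secrete collagen and the small leucine-rich proteoglycans, proteins with a curved leucine-rich core that bind collagen fibrils and set their spacing and, in several members, hold growth factors such as TGF-beta. Stromal cells are recognised by the PDGF receptor alpha and the surface protein THY1 (CD90), and by transcription factors of mesenchymal origin such as NR2F2 (COUP-TFII) and TCF21.

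The stroma genes did not move as a block between the phases. THY1 and LUM were about 3 times as high in the luteal phase, with ratios of 3.21 and 2.86 on the fitted scale. TCF21, NR2F2 and OGN were higher in the follicular phase, by 1.82, 1.53 and 1.40 times. DCN, PDGFRA and BGN did not pass the test. The comparison was made with limma on log2(FPKM + 0.1), luteal minus follicular, with Benjamini-Hochberg adjustment over the 15359 genes that reached an FPKM of 0.1 in no fewer than 5 ovaries. A gene is called where its adjusted p is under 0.05. All fold changes are on this scale, which understates the change of low genes.

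By this rule 5 of the 8 stroma genes were called, against 43.7% of all genes tested. Of the 5, 2 were higher in the luteal phase, where 15.9% of all genes were, and 3 were higher in the follicular phase, where 27.8% of all genes were. The values of the phases did not overlap for LUM, THY1 and TCF21, 3 of the 8, against 28.4% of all genes. The median log2 fold change was -0.17 over the stroma genes and -0.14 over all genes. The luteal phase was the higher one in 36.3% of all calls, a share that was 48.8% after each ovary was shifted to a common median and 52.5% with TPM (FPKM divided by its sum per ovary). With 8 genes these shares are given as a description and are not read as a property of the list. In whole ovaries a lower level from fewer cells of a type and from less RNA per cell cannot be told apart.

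**Figure D1:**
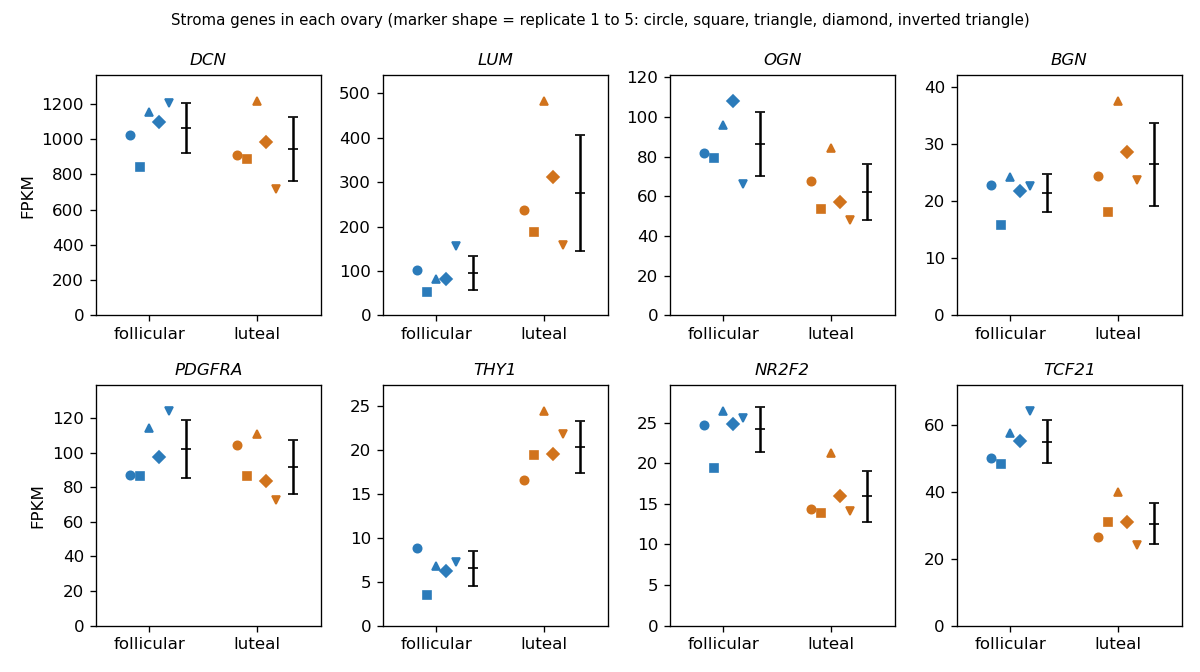
FPKM of each stroma gene (vertical axis, linear, from 0, its own scale per panel) in 5 follicular phase (blue) and 5 luteal phase (orange) ovaries, 1 symbol per ovary, with the mean and SD as a black bar. LUM, THY1 and TCF21 do not overlap between the phases, and the upright triangle, luteal phase replicate 3, is the highest luteal point in 8 of 8 panels.

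The small leucine-rich proteoglycans come first. DCN encodes decorin, the prototype of the family, which coats collagen fibrils and binds TGF-beta. Its FPKM was 1021.7, 842.5, 1151.8, 1096.4 and 1206.4 in follicular phase replicates 1 to 5 and 910.8, 886.6, 1219.0, 982.8 and 718.4 in luteal phase replicates 1 to 5. The phases overlapped widely, and both the highest and the lowest value came from luteal phase ovaries. The means were 1063.8 ± 141.4 and 943.5 ± 182.0 (SD, n = 5 each), with a log2 fold change of -0.18 (SE 0.15, 95% interval -0.51 to 0.14, limma adjusted p = 0.335) that turned to 0.03 under quantile normalization. The interval leaves room for a DCN level up to 0.51 lower or 0.14 higher on the log2 scale.

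LUM encodes lumican, a proteoglycan that carries keratan sulfate in the cornea and binds collagen fibrils in many connective tissues. Its FPKM was 103.1, 51.6, 81.6, 82.1 and 155.9 in the follicular phase and 238.4, 186.7, 484.0, 312.6 and 157.7 in the luteal phase. Every luteal phase value was above every follicular phase value, but the highest follicular and the lowest luteal ovary, both replicate 5, were nearly level. The means were 94.8 ± 38.7 and 275.9 ± 130.4 (SD, n = 5 each), and the log2 fold change was 1.51 (SE 0.33, 95% interval 0.80 to 2.23, limma adjusted p = 0.00352). LUM also varied most between ovaries of 1 phase among these genes, with an SD of 0.58 in the follicular and 0.64 in the luteal phase on the log2 scale.

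OGN encodes osteoglycin (mimecan), a smaller member of the family found in bone and connective tissue. Its FPKM was 81.7, 79.4, 96.0, 108.2 and 66.4 in the follicular phase and 67.7, 53.7, 84.2, 57.1 and 48.2 in the luteal phase. The phases overlapped, since luteal phase replicate 3 was above 3 of the follicular phase ovaries. The log2 fold change was -0.48 (SE 0.16, 95% interval -0.84 to -0.13, limma adjusted p = 0.0319). This call was lost with a shift of the ovaries to a common median (-0.40, adjusted p = 0.0907), with TPM (-0.38, adjusted p = 0.0825) and when follicular phase replicate 1, 3 or 4 or luteal phase replicate 2, 4 or 5 was left out.

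BGN encodes biglycan, the nearest relative of decorin, which also signals when released from the matrix. Its FPKM was 22.8, 15.8, 24.2, 21.9 and 22.7 in the follicular phase and 24.5, 18.1, 37.7, 28.6 and 23.7 in the luteal phase. Of the follicular phase values, 4 lay close together, and the luteal phase values spread on both sides of them. The log2 fold change was 0.28 (SE 0.18, 95% interval -0.11 to 0.67, limma adjusted p = 0.225).

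The surface proteins differed from each other. PDGFRA encodes the tyrosine kinase receptor alpha for platelet-derived growth factors. Its FPKM was 87.3, 86.8, 114.6, 97.5 and 124.4 in the follicular phase and 104.6, 86.9, 111.1, 83.7 and 73.0 in the luteal phase. The ranges overlapped in part, from 86.8 to 111.1. The log2 fold change was -0.15 (SE 0.14, 95% interval -0.45 to 0.14, limma adjusted p = 0.376). THY1 encodes a small glycoprotein anchored to the cell surface by a lipid, present on fibroblasts and also on some T cells, neurons and activated endothelium. Its FPKM was 8.79, 3.46, 6.83, 6.22 and 7.24 in the follicular phase and 16.6, 19.4, 24.5, 19.6 and 21.8 in the luteal phase. The lowest luteal phase ovary was well above the highest follicular phase ovary. The means were 6.51 ± 1.95 and 20.4 ± 2.94 (SD, n = 5 each), and the log2 fold change of 1.68 was the largest of the 8 genes (SE 0.21, 95% interval 1.22 to 2.14, limma adjusted p = 0.000125).

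Both transcription factors were higher in the follicular phase. NR2F2 encodes an orphan nuclear receptor that marks mesenchymal and venous cells and, in gonads, interstitial cells. Its FPKM was 24.7, 19.4, 26.5, 24.9 and 25.6 in the follicular phase and 14.4, 13.9, 21.3, 16.0 and 14.1 in the luteal phase. The phases overlapped through 1 ovary each, the low follicular phase replicate 2 and the high luteal phase replicate 3. The log2 fold change was -0.61 (SE 0.13, 95% interval -0.89 to -0.33, limma adjusted p = 0.00292). TCF21 encodes a basic helix-loop-helix factor of mesenchymal progenitors in the gonad, kidney, lung and heart. Its FPKM was 50.1, 48.3, 57.8, 55.2 and 64.4 in the follicular phase and 26.5, 31.0, 40.1, 31.1 and 24.1 in the luteal phase, without overlap. The means were 55.2 ± 6.45 and 30.6 ± 6.11 (SD, n = 5 each), and the log2 fold change was -0.86 (SE 0.13, 95% interval -1.15 to -0.58, limma adjusted p = 0.000413).

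**Figure D2:**
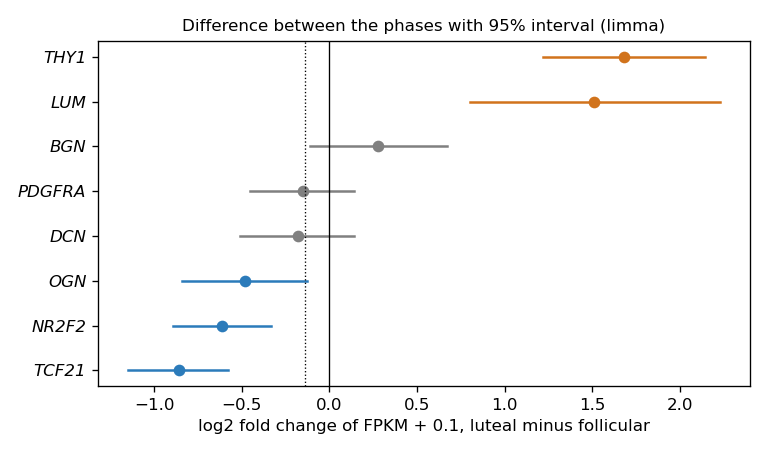
Log2 fold change of FPKM + 0.1, luteal minus follicular (horizontal axis), of each stroma gene with its 95% interval from limma; orange, called higher in the luteal phase; blue, called higher in the follicular phase; grey, not called; dotted line, the median of all genes, -0.14. THY1 at 1.68 and LUM at 1.51 stand apart from the other 6 genes, which lie between -0.86 and 0.28.

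Some ovaries were high or low for nearly all of these genes. Luteal phase replicate 3 was the highest of its phase for 8 of 8 genes, and luteal phase replicate 5 the lowest for 5. Follicular phase replicate 2 was the lowest of its phase for 7 of 8 genes, with OGN lowest in follicular phase replicate 5 instead. Markers of other cell types also stood apart in these ovaries, and their part was not tested. In luteal phase replicate 3 the 6 luteal cell markers summed to 5904.7 FPKM, against 7681.5 to 8076.2 in the other luteal phase ovaries. In follicular phase replicate 2 the 6 surface epithelium markers summed to 46.9 FPKM, against 13.6 to 15.8 in the other follicular phase ovaries. Leaving out any single ovary kept the calls of LUM, THY1, NR2F2 and TCF21, with log2 fold changes of 1.28 to 1.72 for LUM, 1.47 to 1.80 for THY1, -0.72 to -0.57 for NR2F2 and -0.97 to -0.78 for TCF21.

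Because FPKM are scaled to length, the levels of different genes can be set side by side. In the follicular phase the mean FPKM ran in the order DCN, PDGFRA, LUM, OGN, TCF21, NR2F2, BGN and THY1. PDGFRA was above LUM in 3 of 5 ovaries and LUM above OGN in 2 of 5, so the order of these neighbours was not settled. The ranges of NR2F2 and BGN also overlapped, although NR2F2 was the higher in 5 of 5 ovaries. In the luteal phase the order was DCN, LUM, PDGFRA, OGN, TCF21, BGN, THY1 and NR2F2. There the ranges of PDGFRA and OGN, of TCF21 and BGN, of BGN and THY1 and of THY1 and NR2F2 overlapped. THY1 went from the lowest of the 8 genes in the follicular phase to the level of BGN and NR2F2 in the luteal phase, and from rank 7907 to rank 3402 by mean FPKM among the 15359 genes tested. LUM went from rank 585 to rank 201 and TCF21 from rank 1123 to rank 2247, while DCN stayed near the top at ranks 87 and 85. DCN made up 72.1% to 73.9% of the summed FPKM of the 8 genes in the follicular phase ovaries and 60.3% to 68.4% in the luteal phase ovaries.

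A ratio of 2 genes within 1 ovary does not depend on how the libraries were scaled. All 28 pairs of the 8 genes were compared by a two-sided exact permutation test over the 10 ovaries, for which 5 ovaries against 5 allow no p under 0.00794. Of the 28 log2 ratios, 21 differed between the phases at a Benjamini-Hochberg adjusted p under 0.05, and 17 did not overlap between the phases (exact permutation p = 0.00794, adjusted p = 0.0131 for each). The pairs share genes and are not independent, and pairs of other genes were not compared, so these counts are not read as particular to the stroma genes.

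DCN exceeded LUM by 3.57 ± 0.43 on the log2 scale in the follicular phase and by 1.87 ± 0.38 in the luteal phase, a change of -1.70 without overlap. Against THY1 the excess of DCN went from 7.38 ± 0.37 to 5.52 ± 0.28, a change of -1.86. DCN over NR2F2 varied little within a phase, at 5.45 ± 0.07 in the follicular and 5.88 ± 0.13 in the luteal phase, and this difference of 0.43 did not overlap either. DCN over TCF21 rose from 4.26 ± 0.09 to 4.95 ± 0.10. The widest change was THY1 over TCF21, by 2.55, followed by LUM over TCF21, by 2.38. THY1 over NR2F2 turned from -1.93 ± 0.35 to 0.36 ± 0.19, so that the gene with the higher level changed (SD, n = 5 each throughout).

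Other ratios were not told apart between the phases. DCN over PDGFRA changed by -0.03 (exact permutation test, adjusted p = 0.778), LUM over THY1 by -0.17 (adjusted p = 0.634) and OGN over NR2F2 by 0.13 (adjusted p = 0.47). The remaining 4 of these 7 were DCN over OGN (0.30, adjusted p = 0.12), OGN over PDGFRA (-0.33, adjusted p = 0.142), BGN over PDGFRA (0.43, adjusted p = 0.0676) and OGN over TCF21 (0.38, adjusted p = 0.0606). DCN over BGN did differ, by -0.46 (adjusted p = 0.0333), although neither gene passed the test alone. NR2F2 over TCF21 differed by 0.25 with an adjusted p of 0.0423.

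**Figure D3:**
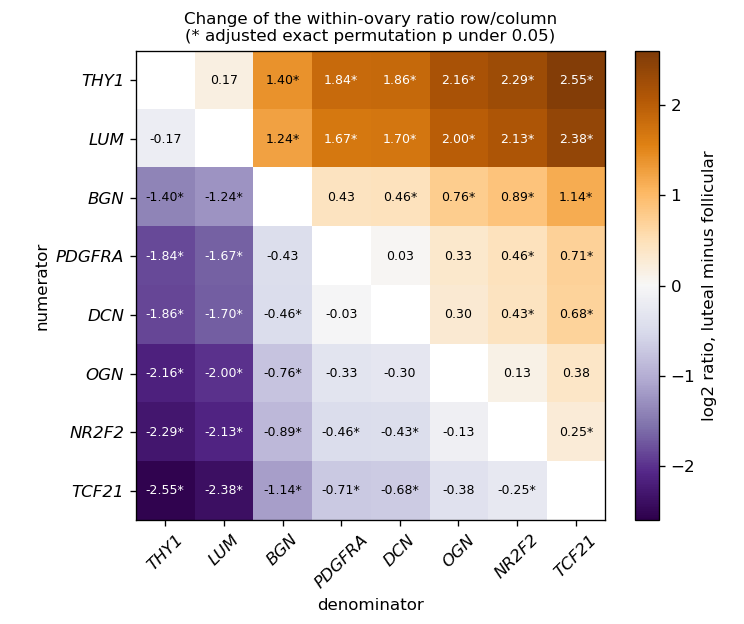
Change between the phases, luteal minus follicular, of the mean log2 ratio of the gene in the row to the gene in the column within an ovary (colour and printed value; n = 5 ovaries per phase); an asterisk marks an adjusted exact permutation p under 0.05. The ratios of THY1 and of LUM to each of the other 6 genes rose, from 1.24 for LUM over BGN to 2.55 for THY1 over TCF21, and the ratio of these 2 genes to each other did not pass the test.

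The 18 transcript models show which rows carry each gene. BGN and TCF21 have 1 model each. The 2 models of DCN shared the gene nearly evenly, with XM_005679813.3 at 47.8 ± 2.99% of the gene's FPKM in the follicular phase and 48.6 ± 2.39% in the luteal phase (SD, n = 5 each). Of the 18 models 17 could be tested in the fit over 32842 transcripts, where 17.3% of all transcripts were called. Among the 17, 3 were called higher in the luteal phase, 4 higher in the follicular phase and 10 were not called. The split of a gene's FPKM over models that share exons is an estimate of the authors' software.

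LUM was carried by XM_005679812.3, at 94.4 ± 38.1 FPKM in the follicular and 267.4 ± 130.0 in the luteal phase (SD, n = 5 each, log2 fold change 1.47, SE 0.35, limma adjusted p = 0.0161). A minor model of LUM, XM_018047618.1, was listed at 0 in 3 follicular phase ovaries and at 0.513 and 1.57 in the other two, and at 13.8, 12.1, 9.83, 3.47 and 3.02 in the luteal phase. It did not overlap between the phases (limma adjusted p = 0.00415). The share of LUM that it held was 0.30% ± 0.449 in the follicular and 3.46% ± 2.47 in the luteal phase. The 2 luteal phase ovaries with the highest total LUM, replicates 3 and 4, were not the highest for this model.

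PDGFRA was not called as a gene, and 1 of its 5 models was. The main model XM_005681627.3 was at 84.7 ± 15.7 and 82.1 ± 14.3 FPKM (SD, n = 5 each, log2 fold change -0.04, limma adjusted p = 0.875), and its share of the gene was 82.7% ± 3.87 in the follicular and 89.3% ± 2.24 in the luteal phase. The minor model XM_018049463.1 was at 2.15, 1.03, 2.42, 1.39 and 1.03 FPKM in the follicular phase and at 0.29, 0.218, 0.0319, 0.0327 and 0.201 in the luteal phase, all lower. Its log2 fold change was -2.80 (SE 0.41, limma adjusted p = 0.00134). The models XM_013964633.2 (-0.63, adjusted p = 0.0631), XM_018049462.1 (-1.31, adjusted p = 0.157) and XM_018049460.1 (-0.24, adjusted p = 0.749) were not called.

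The other genes followed their main models. NR2F2 was called in XM_018066082.1 (log2 fold change -0.65, limma adjusted p = 0.00825) and not in XM_018066081.1 (-0.44, adjusted p = 0.187), whose difference from each other was not tested. OGN was called in XM_013966068.2 (-0.52, adjusted p = 0.0429), which held 98.5% ± 1.18 of the gene in the follicular phase and 96.2% ± 4.08 in the luteal phase. In luteal phase replicate 3 this model was at 75.5 FPKM, against 84.2 for the gene, and was above follicular phase replicate 5 alone. THY1 was called in XM_018059657.1 (1.69, adjusted p = 0.00112), while its other model, XM_013969538.2, was too low to be tested.

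**Figure D4:**
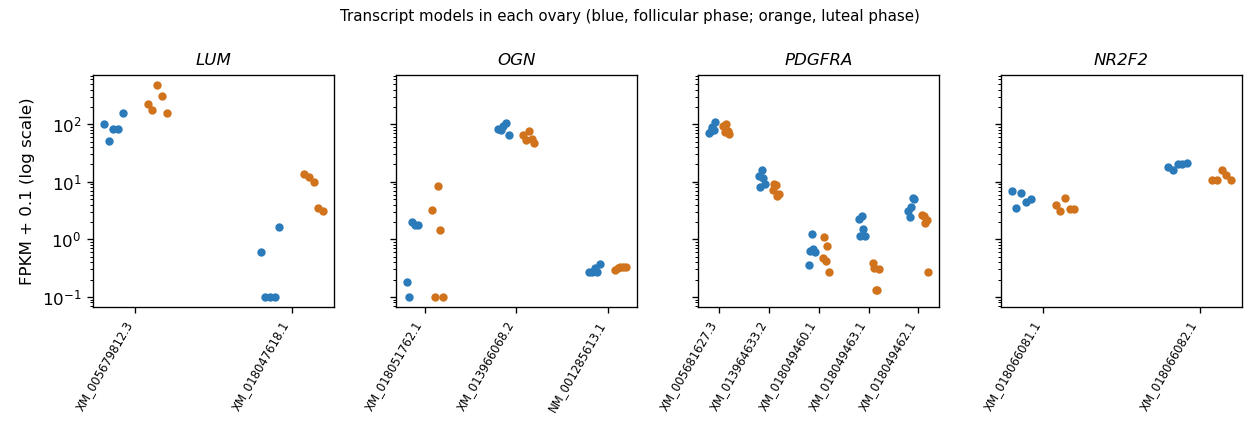
FPKM + 0.1 (vertical axis, log scale) of each transcript model of LUM, OGN, PDGFRA and NR2F2 in 5 follicular phase (blue) and 5 luteal phase (orange) ovaries, 1 point per ovary, with points at 0.1 listed at 0. The minor LUM model XM_018047618.1 is higher, and the minor PDGFRA model XM_018049463.1 lower, in every luteal phase ovary.

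Several of these genes lie beside genes of their own family in the goat RefSeq annotation (assembly ARS1.2), and these neighbours were looked up after the values were known. EPYC, KERA, LUM and DCN, 4 small leucine-rich proteoglycans, follow each other in this order. LUM was called higher in the luteal phase while DCN next to it was not called, KERA was low (0.692 ± 0.168 and 0.466 ± 0.193 FPKM, SD, n = 5 each, log2 fold change -0.52, limma adjusted p = 0.11) and EPYC was too low to be tested. On the other side of DCN, BTG1, an antiproliferative gene, was higher in the follicular phase (-0.58, adjusted p = 0.00155). OGN is followed by OMD, ASPN and ECM2. Of these ASPN, asporin, was called higher in the follicular phase. OMD had a log2 fold change of -0.55 (SE 0.41, limma adjusted p = 0.292) and ECM2 one of 0.05 (adjusted p = 0.854), and neither was called. PDGFRA is followed by the receptor genes KIT and KDR, which were higher in the luteal phase by 2.59 and 1.59 on the log2 scale (limma adjusted p = 2.29e-07 and 3.43e-05).

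Genes with related roles were taken from 5 lists. The list of other small leucine-rich proteoglycans had 12 of 13 genes in the table and 10 tested. None (0) of them was called higher in the luteal phase, against 15.9% of all genes, 1 was called higher in the follicular phase, against 27.8%, and 9 were not called (median log2 fold change -0.30, against -0.14 over all genes). The gene called was ASPN, a relative of decorin and biglycan without a glycosaminoglycan chain, at 68.2, 79.6, 105.3, 104.7 and 75.2 FPKM in the follicular phase and 50.5, 46.9, 64.6, 40.2 and 46.7 in the luteal phase. Its phases did not overlap, and its log2 fold change was -0.79 (SE 0.15, limma adjusted p = 0.00165). The number called higher in the follicular phase was 2 when follicular phase replicate 2, luteal phase replicate 3 or the filter on low values was left out.

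The enzymes that build and sulfate the chondroitin and dermatan sulfate chains carried by decorin and biglycan had 19 of 20 genes tested, with 4 higher in the luteal phase (15.9% of all genes), 8 higher in the follicular phase (27.8% of all genes) and 7 not called (median -0.16). The 8 became 4 with TPM, 5 without follicular phase replicate 1 and 5 without luteal phase replicate 4. CHST15, which adds a further sulfate to chondroitin sulfate, had the largest change, from 10.7 ± 2.11 to 39.1 ± 5.71 FPKM (SD, n = 5 each, log2 fold change 1.86, limma adjusted p = 3.28e-06). CHST3, a chondroitin sulfotransferase, and CHSY3, a chain synthase, rose by 0.49 (adjusted p = 0.00543) and 0.43 (adjusted p = 0.0179). In the other direction, CHST14, the sulfotransferase of dermatan sulfate, went from 9.33 ± 0.293 to 5.73 ± 0.23 FPKM (log2 fold change -0.69, adjusted p = 2.91e-05). CSGALNACT1, which begins the chondroitin chain, fell by 0.79 (adjusted p = 0.00322) and UST, which sulfates the uronic acids, fell by 0.80 (adjusted p = 0.00645).

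The PDGF ligands and the other receptors were 6 of 6 tested, with 4 higher in the luteal phase (15.9% of all genes), 0 higher in the follicular phase (27.8% of all genes) and 2 not called (median 0.46). PDGFB, a ligand of both receptors, ranged over 3.50 to 4.82 FPKM in the follicular phase ovaries and over 7.98 to 14.9 in the luteal phase ovaries (log2 fold change 1.29, limma adjusted p = 0.000122). PDGFA, the ligand that binds receptor alpha, was 2.88 to 4.97 and 5.25 to 7.32 FPKM (0.88, adjusted p = 0.000921). PDGFRB, receptor beta, was 18.6 to 30.9 and 33.1 to 44.1 FPKM (0.61, adjusted p = 0.00368). These 3 genes and PDGFC did not overlap between the phases, 4 of 6 against 28.4% of all genes, while PDGFRA overlapped. The gap of PDGFC was narrow, with a highest follicular phase value of 21.3 FPKM and a lowest luteal phase value of 21.4. PDGFD (0.31, adjusted p = 0.035) lost its call under 9 of 19 alternatives, namely quantile normalization, eBayes without trend and leaving out follicular phase replicate 1, 2, 4 or 5 or luteal phase replicate 2, 3 or 4. PDGFC (0.10, adjusted p = 0.212, but 0.0398 with a common median) and the receptor-like PDGFRL (0.13, adjusted p = 0.604) were not called.

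The list of other mesenchymal transcription factors held 14 genes. It includes TCF3, TCF4 and TCF12, listed as partners of TCF21 and not as mesenchymal factors themselves. Of the 14 genes 13 were tested, with 4 higher in the luteal phase (15.9% of all genes), 7 higher in the follicular phase (27.8% of all genes) and 2 not called (median -0.48). NR2F1, the close relative of NR2F2, went the same way, from 8.64 ± 1.40 to 5.30 ± 0.993 FPKM (SD, n = 5 each, log2 fold change -0.70, limma adjusted p = 0.00299). Among the E proteins, with which TCF21 pairs to bind DNA, TCF12 (59.8 ± 2.75 to 39.9 ± 4.32 FPKM, -0.59, adjusted p = 0.000197) and TCF3 (-0.48, adjusted p = 0.00513) were higher in the follicular phase and TCF4 (0.43, adjusted p = 0.0114) in the luteal phase. The Hedgehog effectors GLI1 and GLI2 fell by 0.90 and 0.96 (adjusted p = 0.00385 and 0.00538), or by 0.50 and 0.55 with 1 as the pseudocount, and OSR2 fell by 1.14 (adjusted p = 0.000288). The 3 with the largest rise were PRRX1, a factor of limb and connective tissue mesenchyme, from 2.07 ± 0.418 to 8.69 ± 1.71 FPKM (2.02, adjusted p = 7.06e-06), OSR1 (1.82, adjusted p = 3.73e-05, but 1.03 with 1 as the pseudocount) and EBF1 (0.76, adjusted p = 0.00889). OSR1 and OSR2, a related pair, thus moved in opposite directions.

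The list of other fibroblast markers, mostly matrix genes, had 21 of 21 genes tested, with 8 higher in the luteal phase (15.9% of all genes), 2 higher in the follicular phase (27.8% of all genes) and 11 not called (median 0.52). The 10 called in either direction are near the 43.7% of all genes. POSTN, periostin, a matrix protein of remodelling tissue, rose most, from 11.4 ± 2.70 to 212.7 ± 68.5 FPKM (SD, n = 5 each, log2 fold change 4.19, limma adjusted p = 1.85e-07). MFAP5, a microfibril protein, rose by 1.48 (adjusted p = 0.000769) and SFRP1, a secreted WNT antagonist, by 1.27 (adjusted p = 0.000413). MFAP4 (-0.55, adjusted p = 0.0224) and the intermediate filament gene VIM (-0.54, adjusted p = 0.00772) were higher in the follicular phase, but the call of MFAP4 was lost with TPM, with a common median and without follicular phase replicate 3 or luteal phase replicate 2 or 5, and that of VIM under quantile normalization.

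**Figure D5:**
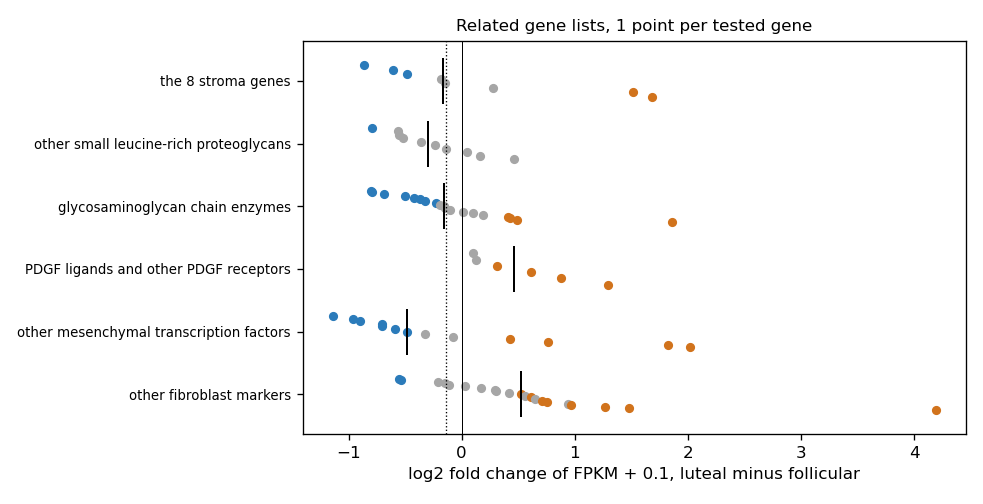
Log2 fold change of FPKM + 0.1, luteal minus follicular (horizontal axis), of every tested gene of the 8 stroma genes and of 5 related lists, 1 point per gene; orange, called higher in the luteal phase; blue, called higher in the follicular phase; grey, not called; black bar, median of the list; dotted line, median of all genes. The list medians run from -0.48 for the other mesenchymal transcription factors to 0.52 for the other fibroblast markers, where POSTN lies at 4.19.

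Markers of several other cell types of the ovary also differed between the phases, where 15.9% of all genes were called higher in the luteal and 27.8% in the follicular phase, and their part in the differences of the stroma genes was not tested. Luteal cell markers were all called higher in the luteal phase (6 of 6 tested), with a summed FPKM of 130.9 to 183.4 in the follicular and 5904.7 to 8076.2 in the luteal phase ovaries. Endothelial markers were higher in the luteal phase for 7 of 8, with sums of 152.5 to 180.8 and 262.1 to 332.1. Of 10 markers of smooth muscle and pericytes, the contractile genes ACTA2, MYH11, CNN1, TAGLN, DES and MYLK, 6 in all, were higher in the follicular phase. The 3 higher in the luteal phase were RGS5, MCAM and CSPG4. The sums, 1422.5 to 1766.3 and 790.6 to 1292.5, were mostly ACTA2 and TAGLN. For granulosa cells 4 of 8 were higher in the follicular phase and 0 in the luteal phase (sums of 285.1 to 1256.0 and 162.8 to 740.2). The granulosa sums rest on single ovaries at their limits: without follicular phase replicate 1 the highest was 784.5, without follicular phase replicate 3 the lowest was 472.2, and without luteal phase replicate 1 the highest was 449.4. For theca cells 2 of 3 were higher in the follicular phase and 1, LHCGR, which luteal cells share, in the luteal phase (sums of 147.8 to 220.4 and 104.7 to 145.5). LHCGR, at 74.2 to 103.3 FPKM, was most of the luteal phase sums. The other 2, INSL3 (123.4 to 184.0 and 14.3 to 56.1 FPKM) and CYP17A1 (15.3 to 40.6 and 2.82 to 13.1), did not overlap between the phases. Oocyte markers were higher in the follicular phase for 5 of 8 and in the luteal phase for 0 (sums of 16.5 to 47.5 and 8.59 to 20.0). Of 8 immune markers 1 was higher in the luteal phase and 7 were not called (sums of 30.5 to 69.2, or to 43.5 without follicular phase replicate 5, and 49.6 to 61.3). Of 6 surface epithelium markers 2 were higher in the luteal phase, 1 in the follicular phase and 3 were not called (sums of 13.6 to 46.9, or to 15.8 without follicular phase replicate 2, and 15.5 to 32.4). Each count of 0 in limma's fit, in these and in the related lists, was also 0 at an unadjusted p under 0.05. The only marker of blood in the table was at or near 0 in 10 of 10 ovaries. The summed FPKM of the 8 stroma genes themselves was 1147.3 to 1673.1 and 1080.9 to 2021.9, so the phases overlapped in the total, of which DCN is the main part.

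For each stroma gene the most similar genes were sought among 11436 named genes whose mean FPKM was 1 or more, by Pearson's r over the 10 ovaries on log2 values centred within each phase. With 10 ovaries and so many genes searched, high values are given as a description only, and the points share their libraries. The closest were BMPR1A, a receptor for bone morphogenetic proteins, for DCN (r = 0.966), ZNF114 for LUM (0.973), GNG11 for OGN (0.936), PLEKHF1 for BGN (0.979), WT1, a transcription factor of the gonads, for PDGFRA (0.942), GOLGB1 for THY1 (0.971), FZD7, a WNT receptor, for NR2F2 (0.966) and SPINT2 for TCF21 (0.952). The next ones were TEKT3 and PRMT2 for DCN, MED6 and ZNF280D for LUM, DNAJB4 and ACTN1 for OGN, ATL3 and QSOX1 for BGN, ANK3 and EPC1 for PDGFRA, HDHD3 and ALPK1 for THY1, ATL3 and NFIA for NR2F2, and GABARAP and DKK3 for TCF21, with r from 0.894 to 0.972. ATL3 was the only gene named for more than 1 stroma gene.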

How the data were processed

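Each ovary gave 1 library. The authors aligned the reads with HISAT2 2.0.4, assembled transcripts with StringTie 1.3.1 and computed the deposited FPKM per transcript and ovary with Cuffdiff 2.1.1, without pooling; the genome build is not given in the sources used here. A table of 50146 transcripts was used, and the other deposited files, which repeat its rows, were not. FPKM of protein-coding transcripts were summed by symbol, and log2(FPKM + 0.1) was compared with limma 3.58.1 in R 4.3.3 (lmFit, eBayes with trend, two-sided, Benjamini-Hochberg). Ratios of genes were compared by exact permutation in Python 3.11.15 with scipy 1.17.1. The limma fit was tested on simulated data, and the permutation test and its adjustment on a few values with known answers. The other steps were not tested in this way.

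The 8 genes and the related and marker lists were chosen with earlier results of these data known. From each related list, genes are named for their role, or as at most the 3 called genes with the largest change per direction. Listed symbols missing from the table were sought through RefSeq synonyms (ARS1.2), by which CYP11A1 and CYP17A1 were found under LOC symbols, and the rest were not analysed here. LHCGR is in 2 marker lists.

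The results were also computed with 1 or 0.01 as the pseudocount, without the filter or with 0.5 as its minimum, after quantile normalization, with equal medians of the ovaries, as TPM, without the variance trend, with a replicate block, with other ways of choosing rows and without each ovary in turn. Recomputing the named genes of the related lists under these was added after seeing the data.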

Additional observations from a re-analysis of the deposited data

Results flagged for a closer look

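A single value far from the others (Dixon's test at 95%, by which chance alone picks about 1 in 20) was sought among 94 sets of 5 ovaries of 1 phase. The sets are the FPKM of the 8 stroma genes and of 31 named genes of the related lists and the summed FPKM of 8 cell type marker lists, each in both phases, so most single genes of the lists were not examined. Such a value was found 6 times in the 94 sets, near the share that chance alone picks. Follicular phase replicate 2 was far below the other follicular phase ovaries for BGN (15.8 FPKM), for NR2F2 (19.4 FPKM) and for the ligand gene PDGFC (18.3 FPKM), and far above them for the summed surface epithelium markers (46.9 FPKM). Luteal phase replicate 3 was far above the other luteal phase ovaries for NR2F2 (21.3 FPKM) and far below them for the summed luteal cell markers (5904.7 FPKM). These are the ovaries that were the lowest of the follicular phase for 7 of the 8 stroma genes and the highest of the luteal phase for 8 of 8. BGN and NR2F2 are among those genes, so their values are part of these counts. The marker sums were added to this search after seeing the data.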

How the results depend on the processing

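LUM, THY1, NR2F2 and TCF21 kept their direction and their call under each of 21 alternatives, with log2 fold changes of 1.28 to 1.72, 1.47 to 1.80, -0.72 to -0.52 and -0.97 to -0.77. DCN (-0.28 to 0.03) and PDGFRA (-0.26 to -0.04) were called under none of them. Among the 21, taking all rows with a symbol returned the main values of all 8 genes and so could not change a call. The same holds for the single highest transcript of TCF21 and BGN. OGN lost its call with a common median (-0.40, adjusted p = 0.0907) and with TPM (-0.38, adjusted p = 0.0825), and ran from -0.60 to -0.40 (adjusted p = 0.00773 to 0.0767) as each ovary was left out. BGN ran from 0.14 to 0.40 and was called under the replicate block alone (0.28, adjusted p = 0.0483). With that block the other small leucine-rich proteoglycans held 1 call higher in the luteal and 2 higher in the follicular phase. The number of the 8 genes called was 4 to 6, and 6711 genes in all became 5488 without luteal phase replicate 4 and 7020 with the replicate block. The number of the 28 pairs under 0.05 was 21, and 19 to 23 as each ovary was left out. Whether equal replicate numbers pair the ovaries is not stated in the sources, and the values cannot decide it. Deviations from the phase means correlated by 0.03, 0.20, 0.19, 0.09 and 0.04 for numbers 1 to 5. Of the 5 luteal phase ovaries, 2 correlated best with the follicular phase ovary of their own number.

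Without read counts, the counting error of low values such as the minor transcript models cannot be given, and the spread between 5 ovaries per phase is the only measure of precision.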
